A study of Homo sapiens with 15 samples.

Results

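The genes described here encode the BCL2 family, the death receptors with their adaptors, and the caspases with their partners and inhibitors, the machinery that carries out apoptosis. A list of 41 genes was followed, and a gene was taken as measured where a probe set of the Affymetrix array carried its symbol and no other. That held for 38 of the 41 genes, among 19775 genes measured in all, and where a gene had several such probe sets the one with the highest mean in the 15 arrays was read. BBC3, RIPK1 and BIRC3 are not analysed here. The 38 genes were 5 anti-apoptotic BCL2 proteins, 4 multidomain pro-apoptotic relatives, 7 BH3-only proteins, 7 death receptors and ligands, 4 adaptors, 5 caspases, 4 apoptosome and mitochondrial factors and 2 inhibitors of apoptosis.

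The study used CAL51, a breast cancer cell line, and CALDOX, 1 line derived from it by long growth in 0.4 µM doxorubicin, an anthracycline that poisons topoisomerase II and breaks DNA. The 5 groups held 3 arrays each, 1 for each independent culture. They were untreated CAL51, CAL51 kept in 0.4 µM doxorubicin for 24 h or for 48 h, CALDOX without treatment, and CALDOX passaged 3 times without drug and then given 4 µM for 24 h. The labels state that CALDOX was routinely kept in the drug, and they do not state whether the untreated CALDOX cultures had been drug-free. Each comparison below with untreated CALDOX, whether to untreated CAL51 or to treated CALDOX, carries this unknown state. Its part was not tested. The dose given to CALDOX also differed from that given to CAL51. Each contrast between treated lines carries the line, the dose and the earlier drug exposure and drug-free passages of CALDOX, which cannot be told apart.

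Apoptosis can start at the mitochondrion or at the cell surface. At the mitochondrion BH3-only proteins release BAX and BAK1 from anti-apoptotic relatives such as BCL2L1 and MCL1, the outer membrane is permeabilized, and cytochrome c assembles APAF1 and caspase-9 into the apoptosome. At the surface FAS and the TRAIL receptors recruit FADD and caspase-8, and CFLAR and decoy receptors limit the signal. Several of these genes, among them FAS, TNFRSF10B, BAX and PMAIP1, are textbook targets of p53, the transcription factor activated by DNA breaks.

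Promoter sequence is shown here as one place where such a factor can bind. The windows ran from 250 bases before to 50 bases after each RefSeq start in GRCh38.p14, and 32 of the 41 genes had at least 1 window. The 10-base p53 motif, searched on both strands with no mismatch, was in 5 of 59 windows of these genes, which is 8.47%, against 6.63% of all 35116 windows. A pair of such motifs with up to 3 mismatches in 20 letters and up to 13 bases between them was in 9 of the 59 windows, 15.3%, against 12.8% of all windows. The exact forkhead motif GTAAACA was in 1 window, 1.69%, against 3.42% of all windows. These shares lay near those of all promoters, and a match is a description of letters, not a measured binding site. Neither TNFRSF10B nor BAX was among the genes with a p53 match. Sequence outside the windows was not searched, so the shares do not show whether p53 acts on these genes. Matches lay in promoters of genes that were higher with drug in CAL51 and of genes that were not: BOK, CYCS, BCL2L1, CASP6 and BCL2L13 held one and were not called higher with drug in either line. The sequences below show matches of both kinds, each 5′ to 3′ on the gene's strand, with the matched letters in capitals.
FAS, pair 122 bases before the start with 2 mismatches, chr10:88991269-88991368, plus strand: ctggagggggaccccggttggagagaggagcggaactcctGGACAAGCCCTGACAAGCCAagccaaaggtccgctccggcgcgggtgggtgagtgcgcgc
BAK1, pair 73 bases before the start with 2 mismatches, chr6:33580288-33580389, minus strand: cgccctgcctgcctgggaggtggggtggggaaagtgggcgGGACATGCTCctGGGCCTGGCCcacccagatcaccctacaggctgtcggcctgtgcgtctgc
PMAIP1, pair 185 bases before the start with 3 mismatches, chr18:59899771-59899870, plus strand: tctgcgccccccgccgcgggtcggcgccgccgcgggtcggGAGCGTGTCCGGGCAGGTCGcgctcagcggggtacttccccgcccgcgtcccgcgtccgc
CASP8, exact motif 121 bases before the start, chr2:201257874-201257963, plus strand: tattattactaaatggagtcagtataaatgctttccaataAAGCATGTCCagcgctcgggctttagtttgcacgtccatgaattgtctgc
CASP9, exact motif 188 bases before the start, chr1:15524929-15525018, minus strand: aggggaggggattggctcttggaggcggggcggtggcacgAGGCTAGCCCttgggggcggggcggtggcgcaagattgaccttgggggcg
BOK, pair 20 bases before the start with 3 mismatches, chr2:241558685-241558786, plus strand: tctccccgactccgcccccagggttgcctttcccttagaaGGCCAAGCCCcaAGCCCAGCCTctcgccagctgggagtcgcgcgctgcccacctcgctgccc
CYCS, pair 183 bases before the start with 3 mismatches, chr7:25125382-25125483, minus strand: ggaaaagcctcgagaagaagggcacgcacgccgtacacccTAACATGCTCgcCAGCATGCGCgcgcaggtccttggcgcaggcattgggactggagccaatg
BCL2L11, GTAAACA 223 bases before the start, chr2:111120664-111120737, plus strand: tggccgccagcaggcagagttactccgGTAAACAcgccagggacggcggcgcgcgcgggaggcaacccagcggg

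Arrays of a group correlated with each other at 0.9929 to 0.9978 over all probe sets, and arrays of different groups at 0.9789 to 0.9958. The treatment was visible in CDKN1A, the p53 target that encodes the cyclin-dependent kinase inhibitor p21, which was higher after drug by 1.98 ± 0.07 at 24 h and 2.54 ± 0.07 at 48 h in CAL51, and by 1.11 ± 0.07 in CALDOX. Here and below, a difference is on the log2 scale and is given with the limma standard error for 3 arrays in each group. TOP2A, the topoisomerase that doxorubicin poisons, changed by -0.20 ± 0.08 at 24 h (adjusted p = 0.12), -0.56 ± 0.08 at 48 h (adjusted p = 7.3e-05) and -0.42 ± 0.08 in CALDOX (adjusted p = 0.0021), and the untreated lines differed in it by -0.97 ± 0.08 (adjusted p = 9.1e-08). ABCB1, which encodes a drug efflux pump, differed by -0.11 ± 0.09 between the untreated lines (adjusted p = 0.46). Both lines had high signal for the epithelial genes EPCAM, KRT8 and KRT18. From untreated CAL51 to untreated CALDOX the means of other markers moved both ways within each list: epithelial KRT19 went from 6.59 to 11.35 and CDH1 from 7.34 to 5.99, and mesenchymal VIM from 12.58 to 10.86 and FN1 from 11.37 to 13.43. The mean over the 4 mesenchymal genes was 11.08 to 11.17 in the arrays of untreated CAL51 and 11.06 to 11.21 in those of untreated CALDOX. The mean over the 5 epithelial genes was 10.46 to 10.52 in untreated CAL51, 10.88 to 11.15 at 24 h and 11.41 to 11.59 at 48 h, and in CALDOX 11.02 to 11.09 untreated and 11.18 to 11.29 treated. It thus moved with the treatment of both lines and differed between the untreated lines, and its part in the results below was not tested. The mean over the 4 measured blood cell genes stayed between 6.46 and 6.66 in every array.

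After 24 h in doxorubicin, CAL51 cells had more mRNA for 5 of the 7 death receptors and ligands, with TNFRSF1A lower. The 5 include the decoy receptors TNFRSF10C and TNFRSF10D. Also higher were BAX, BAK1 and 3 of the 7 BH3-only proteins, of which BID lost its call without any one of 5 of the 6 arrays. With limma at an adjusted p under 0.05, 12 of the 38 genes were higher and 2 lower, against 5.77% higher and 4.34% lower among all 19775 genes tested, and the median change was 0.08 against -0.03 over all genes. With the spread of each array as a covariate, all genes split into 1243 higher and 1635 lower, in place of 1141 and 858. At 48 h, 12 genes were higher and 3 lower, against 10.5% and 11.2% of all genes, with a median of 0.12 against -0.02. In this bulk RNA, fewer cells of a kind and less RNA per cell cannot be told apart. The comparisons at 24 h and at 48 h, and that between the untreated lines, share the untreated CAL51 arrays, so their values stand side by side and are not independent.

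From 24 h to 48 h, 3 genes were higher and 1 lower, against 4.37% and 5.34% of all genes, with a median of 0.03 against 0.01. Untreated CALDOX differed from untreated CAL51 in 10 genes that were higher and 6 that were lower, against 14.2% and 11.7% of all genes, with a median of 0.06 against 0.00. Treated CALDOX had 7 genes higher and 1 lower than untreated CALDOX, against 4.82% and 5.5%, with a median of 0.07 against -0.01. The 24 h responses of the lines differed in 3 genes, each with the smaller response in CALDOX, and in 0 genes the other way, against 0.855% and 0.576% of all genes. At 24 h and 48 h in CAL51 and at 24 h in CALDOX, the share of members that were higher stood above the share over all genes. Of the 38 members, 36 had a mean signal above the median of all probe sets, and all genes include dimmer ones. The members were also chosen with earlier results of these data known. The part of either in these shares was not tested. For the untreated lines, 10 of 38 against 14.2% is nearer to the background.

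**Figure D1:**
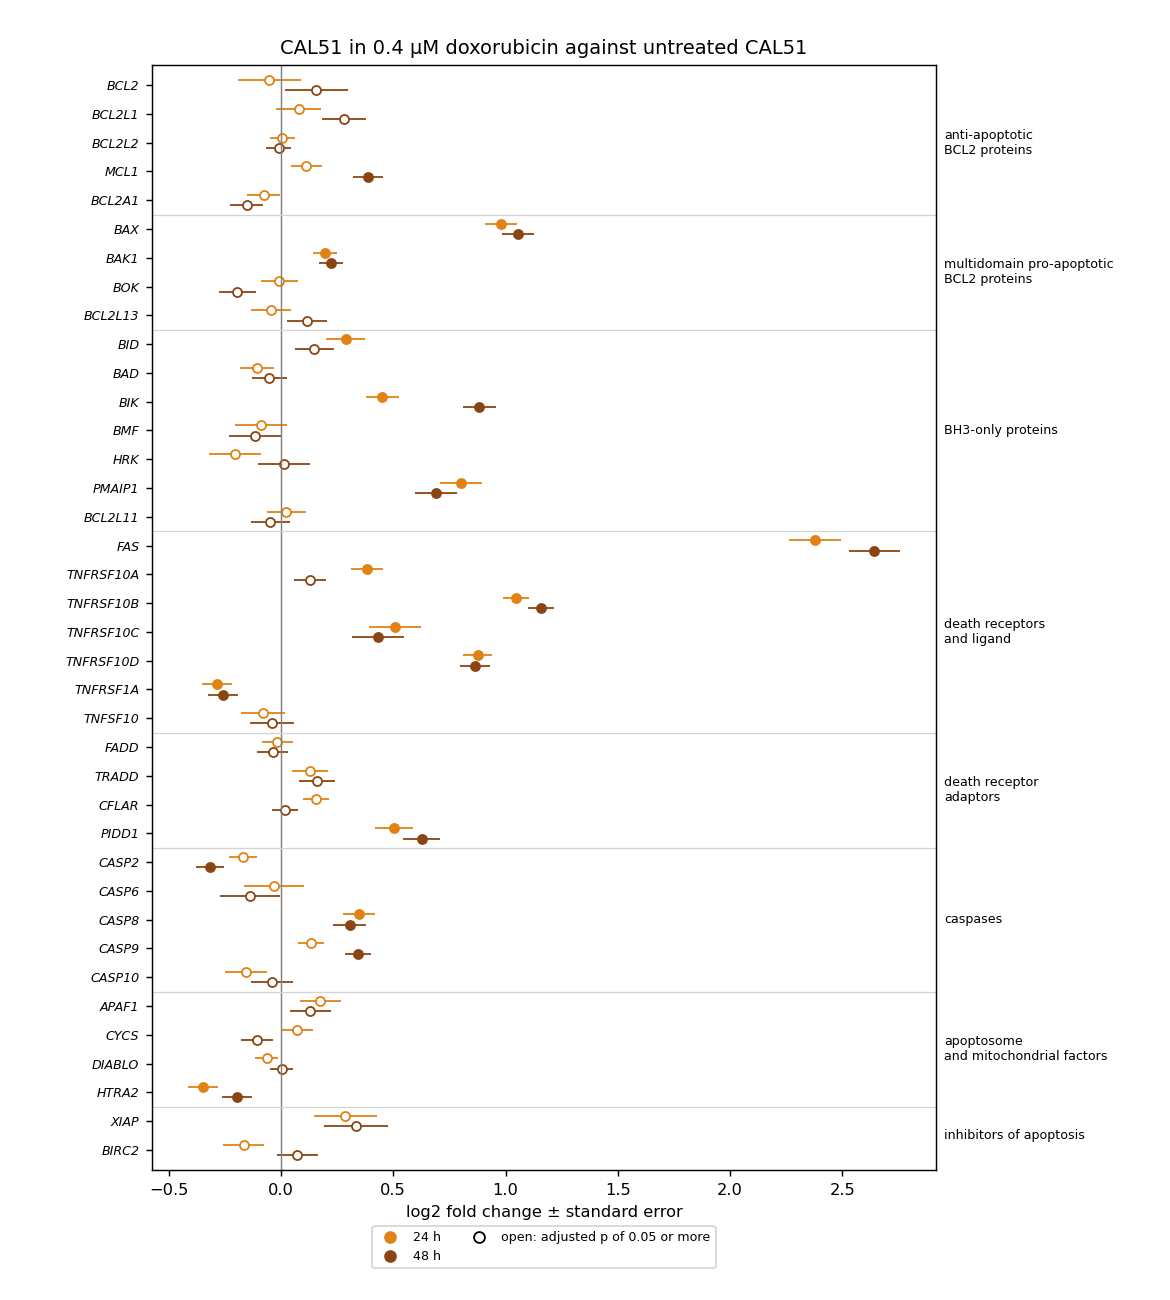
Log2 fold change with its standard error of 38 genes in CAL51 after 24 h and 48 h in 0.4 µM doxorubicin against untreated CAL51, grouped by role; filled points have an adjusted p under 0.05. FAS stands farthest right at 2.38 and 2.64, followed by TNFRSF10B, BAX, TNFRSF10D, PMAIP1 and BIK, and most other points lie near 0.

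FAS, the receptor for FAS ligand, had the largest change of the 38 genes in each comparison with untreated cells. Its log2 values in the 3 arrays of untreated CAL51 were 6.43, 7.06 and 6.85, those at 24 h were 9.11, 9.26 and 9.11, and those at 48 h were 9.32, 9.44 and 9.52. Untreated CALDOX gave 8.88, 9.03 and 8.87, and treated CALDOX gave 10.31, 10.34 and 10.37. Untreated CAL51 was lowest, untreated CALDOX lay just below treated CAL51, treated CALDOX was highest, and no 2 groups overlapped. FAS rose by 2.38 ± 0.12 at 24 h, which is 5.20-fold (adjusted p = 1.9e-09), and by 2.64 ± 0.12 at 48 h, which is 6.24-fold (adjusted p = 2.8e-10). In untreated CALDOX it was higher by 2.15 ± 0.12, or 4.43-fold (adjusted p = 6.3e-10), and the treatment of CALDOX added 1.41 ± 0.12, or 2.66-fold (adjusted p = 1.5e-06).

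TNFRSF10B, the death receptor for TRAIL also known as DR5, gave 9.94, 9.99 and 9.84 in untreated CAL51, 10.92, 11.04 and 10.95 at 24 h, and 11.08, 11.05 and 11.11 at 48 h. In CALDOX it gave 10.15, 10.23 and 10.26 untreated and 10.71, 10.77 and 10.75 treated. Treated arrays were above untreated arrays of their line without overlap, and the treated CALDOX arrays stayed below all treated CAL51 arrays. The rise was 1.05 ± 0.06 at 24 h (adjusted p = 1e-08), 1.16 ± 0.06 at 48 h (adjusted p = 1.5e-09) and 0.53 ± 0.06 in CALDOX (adjusted p = 2.2e-05). The untreated lines differed by 0.29 ± 0.06 (adjusted p = 0.0012), with CALDOX the higher. TNFRSF10A, the other signalling TRAIL receptor, gave 7.74, 7.83 and 7.81 untreated, 8.10, 8.22 and 8.21 at 24 h, and 7.78, 7.95 and 8.03 at 48 h. At this brightest probe set of TNFRSF10A the rise was 0.38 ± 0.07 at 24 h (adjusted p = 0.002), and from 24 h to 48 h it changed by -0.26 ± 0.07 (adjusted p = 0.03). Its other 2 probe sets were higher at 48 h too, by 0.55 (adjusted p = 2.9e-05) and 0.78 (adjusted p = 0.00025) in the fit over all 41091 probe sets with 1 symbol. The call of that fall ended without 24 h array 2 or 3 or 48 h array 1 or 2, with adjusted p of 0.074, 0.09, 0.15 and 0.062. In CALDOX TNFRSF10A rose by 0.29 ± 0.07 (adjusted p = 0.014). That call ended without untreated array 2 or 3 or treated array 1 or 3 of that line, with adjusted p of 0.052, 0.071, 0.077 and 0.052. In the fit over all probe sets its other 2 rose in CALDOX by 0.24 (adjusted p = 0.048) and 0.59 (adjusted p = 0.0064). Between the untreated lines these 2 were higher in CALDOX, by 0.54 (adjusted p = 1.7e-05) and 0.68 (adjusted p = 0.00056). The brightest gave 0.11 there (adjusted p = 0.37).

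The decoy receptors bind TRAIL without a complete death domain. TNFRSF10D, which has a truncated domain, gave 8.85, 8.97 and 8.86 in untreated CAL51, 9.79, 9.73 and 9.80 at 24 h and 9.82, 9.67 and 9.79 at 48 h. CALDOX gave 8.50, 8.71 and 8.65 untreated and 9.09, 9.15 and 9.14 treated, so the gene was lower in CALDOX and higher in the treated arrays of both lines. The rises were 0.88 ± 0.07 at 24 h (adjusted p = 2.8e-07), 0.86 ± 0.07 at 48 h (adjusted p = 1.1e-07) and 0.51 ± 0.07 in CALDOX (adjusted p = 9.8e-05), and untreated CALDOX minus untreated CAL51 was -0.28 ± 0.07 (adjusted p = 0.004). TNFRSF10C, anchored to the membrane without any death domain, gave 7.60, 7.85 and 7.73 untreated, 8.17, 8.43 and 8.10 at 24 h, and 8.49, 8.00 and 7.99 at 48 h. CALDOX gave 7.57, 7.66 and 7.61 untreated and 7.76, 7.67 and 7.69 treated, all below every treated CAL51 array. TNFRSF10C rose in CAL51 by 0.51 ± 0.12 (adjusted p = 0.01) and 0.43 ± 0.12 (adjusted p = 0.013), and in CALDOX the change was 0.09 ± 0.12 (adjusted p = 0.75). Without untreated CAL51 array 1 these 2 calls ended, with adjusted p of 0.052 at 24 h and 0.061 at 48 h, and without 48 h array 1 the later one had an adjusted p of 0.06.

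TNFRSF1A, the main receptor for TNF, moved against the others. It gave 10.11, 10.09 and 10.22 in untreated CAL51, 9.80, 9.87 and 9.90 at 24 h, and 9.98, 9.80 and 9.87 at 48 h, so all treated CAL51 arrays were lower. The change was -0.29 ± 0.07 at 24 h (adjusted p = 0.012) and -0.26 ± 0.07 at 48 h (adjusted p = 0.01), and in CALDOX the change was 0.02 ± 0.07 (adjusted p = 0.92). For TNFRSF1A the call at 24 h ended without untreated array 3 or 24 h array 1 (adjusted p = 0.061 and 0.059), and that at 48 h without untreated array 3 or 48 h array 2 (adjusted p = 0.053 and 0.052). Between the untreated lines TNFRSF1A differed by -0.19 ± 0.07 (adjusted p = 0.052), and without untreated CALDOX array 2 by -0.23 (adjusted p = 0.03). TNFSF10, which encodes TRAIL itself, stayed between 4.55 and 5.03 in all 15 arrays, at the low end of the range of signal, and passed the test in no comparison.

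**Figure D2:**
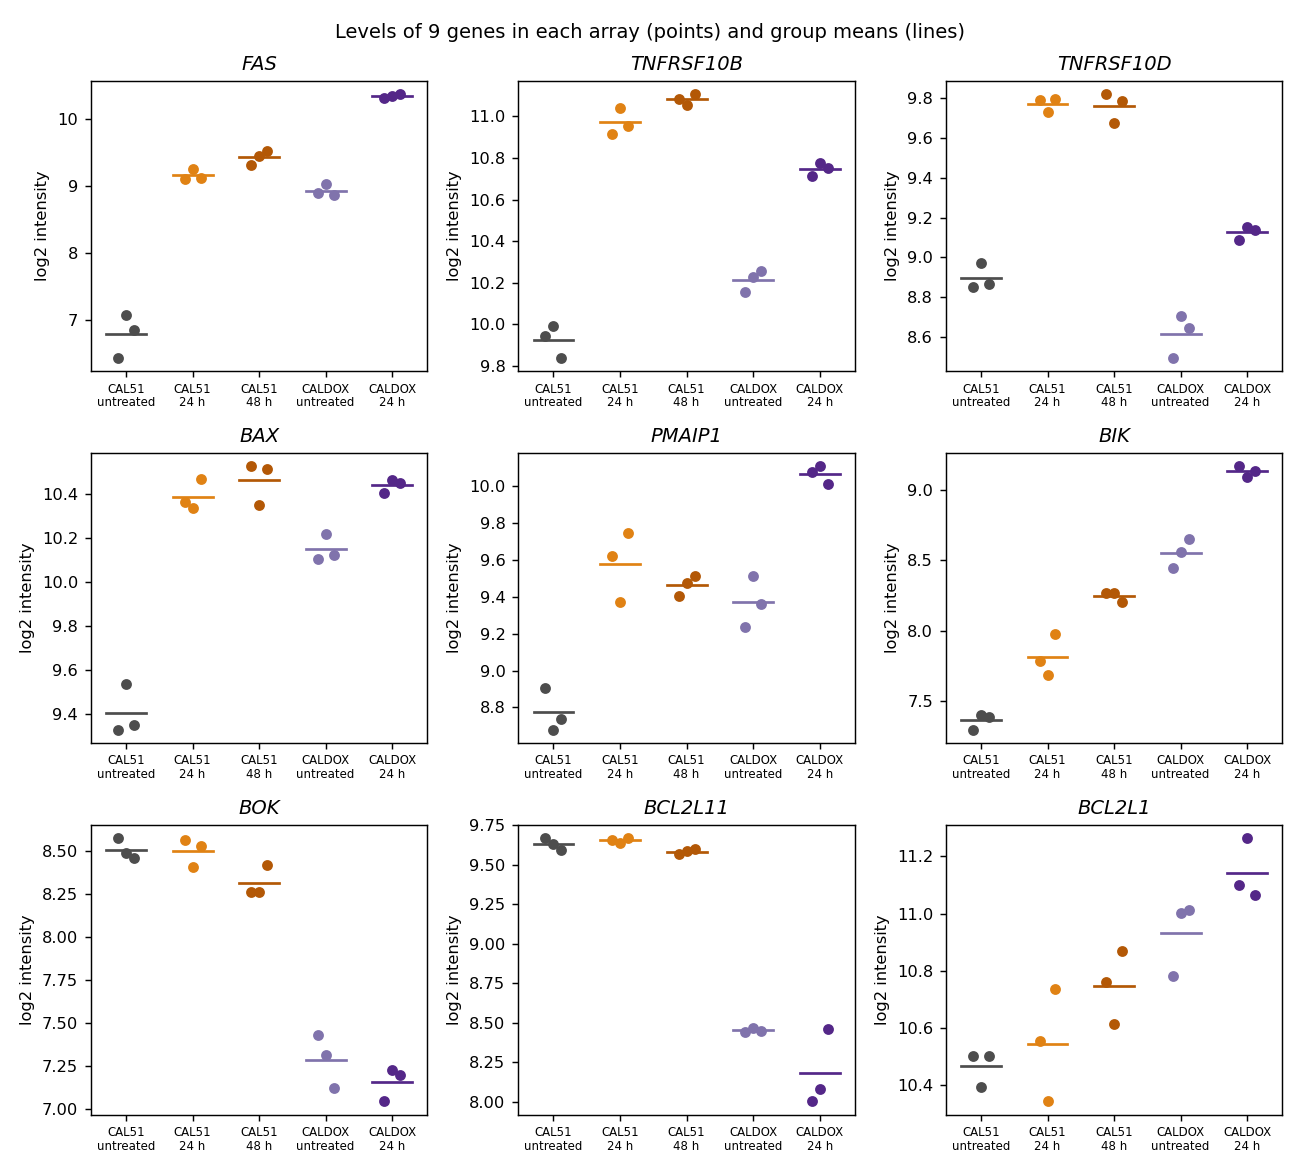
Log2 intensity of 9 genes in each of the 15 arrays (points) with the group mean (line), in untreated CAL51, CAL51 at 24 h and 48 h in 0.4 µM doxorubicin, then CALDOX, untreated or after 24 h in 4 µM. Axes do not start at 0 and differ between panels; FAS, BAX, PMAIP1 and BIK are higher in untreated CALDOX than in untreated CAL51, and BOK and BCL2L11 are lower in CALDOX with or without treatment.

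Among the BH3-only proteins, which sense damage and neutralize anti-apoptotic relatives or activate BAX and BAK1, 3 of 7 were higher at 24 h and 2 of 7 at 48 h. PMAIP1, which encodes NOXA, an antagonist of MCL1, gave 8.91, 8.68 and 8.74 untreated, 9.62, 9.37 and 9.74 at 24 h, and 9.41, 9.47 and 9.51 at 48 h. In CALDOX it gave 9.24, 9.52 and 9.36 untreated and 10.08, 10.11 and 10.01 treated, so the treated CALDOX arrays were the highest of all. PMAIP1 rose by 0.80 ± 0.09 at 24 h (adjusted p = 3.1e-05), 0.69 ± 0.09 at 48 h (adjusted p = 4.8e-05) and 0.69 ± 0.09 in CALDOX (adjusted p = 0.00013), and the untreated lines differed by 0.60 ± 0.09 (adjusted p = 0.00011).

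BIK, a BH3-only protein of the endoplasmic reticulum, stood higher from group to group. It gave 7.30, 7.40 and 7.39 in untreated CAL51, 7.78, 7.69 and 7.98 at 24 h, and 8.27, 8.27 and 8.21 at 48 h. CALDOX gave 8.45, 8.56 and 8.65 untreated and 9.17, 9.09 and 9.14 treated, with no overlap between any 2 groups. BIK rose by 0.45 ± 0.07 at 24 h (adjusted p = 0.00079) and by a further 0.43 ± 0.07 from 24 h to 48 h (adjusted p = 0.0015), reaching 0.88 ± 0.07 (adjusted p = 3.5e-07). Untreated CALDOX was higher than untreated CAL51 by 1.19 ± 0.07, or 2.28-fold (adjusted p = 3.5e-09), and treatment of CALDOX added 0.58 ± 0.07 (adjusted p = 8.7e-05).

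BCL2L11, which encodes BIM, an activator of BAX and a binder of every anti-apoptotic relative, differed between the lines, and at its brightest probe set it did not pass the test with acute treatment in either line. Its values were 9.67, 9.63 and 9.60 in untreated CAL51, 9.66, 9.64 and 9.67 at 24 h, and 9.57, 9.59 and 9.60 at 48 h. Untreated CALDOX gave 8.44, 8.47 and 8.45, and treated CALDOX 8.00, 8.08 and 8.46, of which the third lay with the untreated arrays. The difference between the untreated lines was -1.18 ± 0.09, a level 2.26-fold lower in CALDOX (adjusted p = 2.7e-08). Treatment of CALDOX changed BCL2L11 by -0.27 ± 0.09 (adjusted p = 0.061), and without treated array 3 by -0.41 (adjusted p = 0.00058). The difference of the BCL2L11 responses, -0.30 ± 0.12 (adjusted p = 0.36), was then -0.44 (adjusted p = 0.016). BCL2L11 was read by 7 probe sets, of which 5 gave a difference between the lines of -0.70 to -1.25 and the other 2 gave -0.10 (adjusted p = 0.39) and -0.21 (adjusted p = 0.19), in the fit over all probe sets. In that fit 1 of the 7 fell in treated CALDOX, by 0.53 (adjusted p = 0.0059), and another fell in CAL51 at 48 h, by 0.30 (adjusted p = 0.017).

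BID, which caspase-8 cleaves to link the receptors to the mitochondrion, gave 8.23, 8.51 and 8.24 untreated and 8.56, 8.60 and 8.68 at 24 h. It rose by 0.29 ± 0.09 (adjusted p = 0.044), a call that ended without any one of 5 of the 6 arrays, with adjusted p of 0.16 without untreated array 1 or 3, 0.071, 0.068 and 0.13 without 24 h array 1, 2 or 3. At 48 h BID differed from untreated by 0.15 ± 0.09 (adjusted p = 0.26). In the fit over all probe sets, the other BID probe sets gave 0.15 (adjusted p = 0.19) and 0.31 (adjusted p = 0.04) at 24 h in CAL51. In treated CALDOX these gave 0.25 (adjusted p = 0.032) and 0.16 (adjusted p = 0.39), and the brightest gave 0.08 (adjusted p = 0.75). The BH3-only genes BAD, BMF and HRK passed the test in no comparison. BMF gave 7.92 in all 3 untreated CALDOX arrays and 7.50, 7.78 and 7.58 in untreated CAL51, a difference of 0.29 ± 0.12 (adjusted p = 0.082) that was 0.37 without untreated CAL51 array 2 (adjusted p = 0.05).

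BAX, the pore former of the outer mitochondrial membrane, gave 9.33, 9.54 and 9.35 in untreated CAL51, 10.36, 10.33 and 10.47 at 24 h, and 10.53, 10.35 and 10.51 at 48 h. CALDOX gave 10.11, 10.22 and 10.12 untreated and 10.40, 10.46 and 10.45 treated. Treated CALDOX and treated CAL51 arrays overlapped, and untreated CALDOX lay between untreated and treated CAL51. BAX rose by 0.98 ± 0.07 at 24 h (adjusted p = 1.8e-07) and 1.06 ± 0.07 at 48 h (adjusted p = 3.4e-08), and it was higher in untreated CALDOX by 0.74 ± 0.07 (adjusted p = 5.3e-07). The rise in CALDOX was 0.29 ± 0.07 (adjusted p = 0.013), a call for BAX that ended without untreated CALDOX array 1 or 3 or treated CALDOX array 2, with adjusted p of 0.053, 0.055 and 0.055.

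BAK1, the second pore former, moved by less. It gave 8.65, 8.56 and 8.61 untreated, 8.77, 8.77 and 8.86 at 24 h and 8.84, 8.80 and 8.84 at 48 h, with no overlap between treated and untreated CAL51. The changes were 0.20 ± 0.05 (adjusted p = 0.028) and 0.22 ± 0.05 (adjusted p = 0.0062), and untreated CALDOX, at 8.82, 8.88 and 8.81, was higher by 0.23 ± 0.05 (adjusted p = 0.0039). The call for BAK1 at 24 h ended without untreated CAL51 array 2 or 3 or 24 h array 1 or 3, with adjusted p of 0.093, 0.07, 0.056 and 0.11.

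BOK, a relative of BAX and BAK1 that can act without them, was lower in CALDOX. It gave 8.58, 8.49 and 8.46 in untreated CAL51, 8.57, 8.41 and 8.53 at 24 h, and 8.26, 8.26 and 8.42 at 48 h. CALDOX gave 7.43, 7.32 and 7.12 untreated and 7.05, 7.23 and 7.20 treated, and every CALDOX array was below every CAL51 array. The untreated lines differed by -1.22 ± 0.08, a level 2.33-fold lower in CALDOX (adjusted p = 9.3e-09), and the changes with drug, -0.19 ± 0.08 at 48 h (adjusted p = 0.11) and -0.13 ± 0.08 in CALDOX (adjusted p = 0.42), did not pass. The other probe set of BOK gave -0.10 between the lines (adjusted p = 0.52), so the difference was seen by 1 of its 2 probe sets. BCL2L13, a mitophagy receptor of the family, passed the test in no comparison.

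The anti-apoptotic proteins hold the pore formers in check, and 0 of 5 passed the test at 24 h in either direction. Without adjustment, 0 of the 5 had a p under 0.05 there in limma at the brightest probe set. With the mean of all its probe sets BCL2 gave -0.23 (adjusted p = 0.0098). Dimmer probe sets of MCL1 went both ways at 24 h in the fit over all probe sets. One gave 0.44 (adjusted p = 0.00072) and another -0.46 (adjusted p = 0.016). MCL1, a short-lived member, gave 11.06, 11.05 and 11.17 untreated, 11.25, 11.10 and 11.28 at 24 h and 11.54, 11.39 and 11.52 at 48 h. It was highest at 48 h without overlap, and it rose by 0.39 ± 0.07 against untreated (adjusted p = 0.00057) and by 0.28 ± 0.07 from 24 h (adjusted p = 0.017). The rise of MCL1 from 24 h ended without 24 h array 2 (adjusted p = 0.062) or 48 h array 1 (0.077) or 3 (0.052). BCL2L1, which encodes BCL-XL, gave 10.50, 10.39 and 10.50 untreated and 10.76, 10.61 and 10.87 at 48 h, a difference of 0.28 ± 0.10 that missed the threshold (adjusted p = 0.053) and was 0.35 without 48 h array 2 (adjusted p = 0.033).

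Between the untreated lines BCL2L1 was higher in CALDOX, at 10.78, 11.00 and 11.01, by 0.47 ± 0.10 (adjusted p = 0.0018). In treated CALDOX it was 11.10, 11.27 and 11.06, a further 0.21 ± 0.10 that did not pass (adjusted p = 0.23). Of its 4 probe sets, 3 gave 0.37 to 0.47 between the lines and the other gave -0.05 (adjusted p = 0.75). BCL2L2, which encodes BCL-W, was lower in untreated CALDOX, at 8.71, 8.75 and 8.62 against 8.99, 8.90 and 8.90, a difference of -0.24 ± 0.06 (adjusted p = 0.0036). The other probe set of BCL2L2 gave -0.10 (adjusted p = 0.48). BCL2 itself did not pass in any comparison at its brightest probe set, and BCL2A1 stayed between 4.13 and 4.48 in all arrays.

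**Figure D3:**
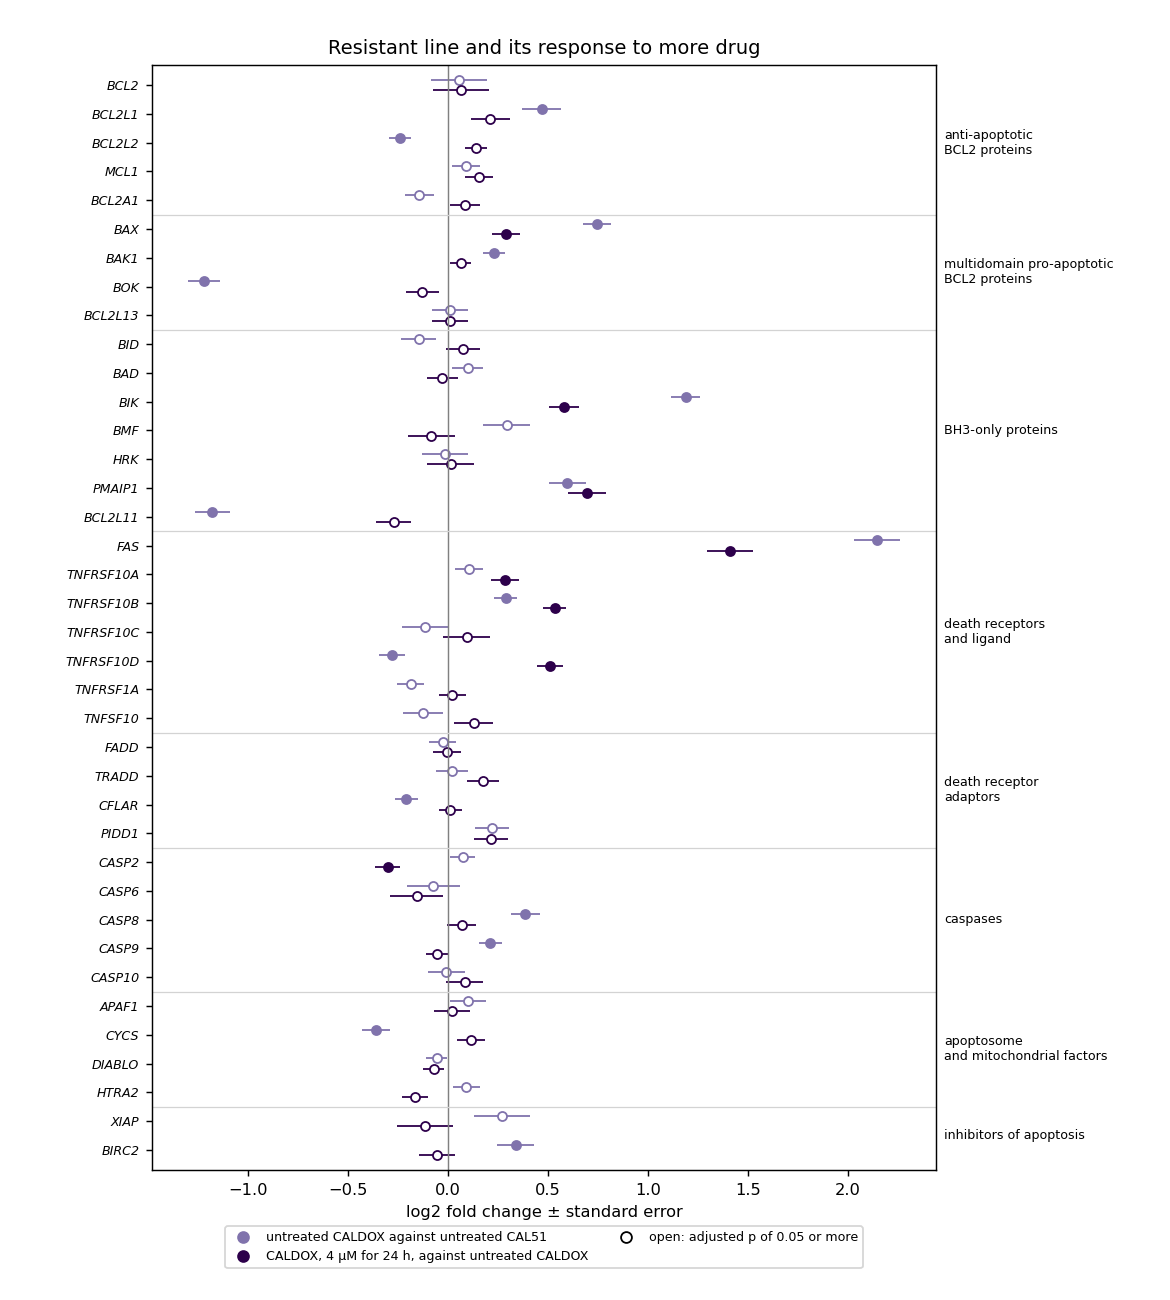
Log2 fold change with its standard error of the 38 genes between untreated CALDOX and untreated CAL51, and between CALDOX after 24 h in 4 µM doxorubicin and untreated CALDOX; filled points have an adjusted p under 0.05. FAS and BIK are farthest to the right between the lines, at 2.15 and 1.19, and BOK and BCL2L11 farthest to the left, at -1.22 and -1.18.

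The list of adaptors held FADD and TRADD, which couple receptors to caspases, and also PIDD1 and CFLAR. PIDD1, a p53-induced scaffold that activates caspase-2, gave 8.81, 8.78 and 8.95 untreated, 9.40, 9.21 and 9.45 at 24 h, and 9.64, 9.39 and 9.39 at 48 h. All treated CAL51 arrays were above the untreated ones, and the rises were 0.51 ± 0.08 (adjusted p = 0.00097) and 0.63 ± 0.08 (adjusted p = 4.9e-05). In CALDOX PIDD1 gave 9.02, 9.07 and 9.12 untreated and 9.37, 9.32 and 9.17 treated, a difference of 0.22 ± 0.08 (adjusted p = 0.14). Between the untreated lines PIDD1 differed by 0.22 ± 0.08 (adjusted p = 0.068), and without untreated CAL51 array 3 by 0.27 (adjusted p = 0.048). FADD and TRADD, the adaptors of FAS and of the TNF receptor, passed in no comparison, and FADD stayed between 9.09 and 9.31 in all 15 arrays.

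CFLAR, which encodes FLIP, the inhibitor of caspase-8 at the receptor, gave 9.80, 9.77 and 9.68 in untreated CAL51 and 9.57, 9.53 and 9.52 in untreated CALDOX. That difference of -0.21 ± 0.06 passed (adjusted p = 0.013), and without untreated CAL51 array 1 it did not (adjusted p = 0.054). CFLAR had 14 probe sets that did not move as one. Between the lines they ran from -0.32 (adjusted p = 0.0021) to 0.59 (adjusted p = 5.2e-06), and in CAL51 at 48 h from -0.16 (adjusted p = 0.12) to 0.62 (adjusted p = 0.08), so no single direction describes this gene.

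Of the 5 caspases, CASP8 and CASP9 were higher and CASP2 lower at 48 h. CASP8, the initiator at the death receptors, gave 9.18, 8.94 and 9.08 untreated, 9.40, 9.35 and 9.50 at 24 h, and 9.35, 9.36 and 9.41 at 48 h, with all treated arrays higher. It rose by 0.35 ± 0.07 (adjusted p = 0.0052, and 0.051 when only the arrays compared were fitted) and 0.31 ± 0.07 (adjusted p = 0.0055). In CALDOX it gave 9.42, 9.52 and 9.42 untreated and 9.40, 9.61 and 9.56 treated, so that untreated CALDOX was already 0.39 ± 0.07 above untreated CAL51 (adjusted p = 0.00063) and the change with drug was 0.07 ± 0.07 (adjusted p = 0.69).

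CASP9, the initiator at the apoptosome, gave 8.54, 8.49 and 8.39 untreated, 8.58, 8.67 and 8.58 at 24 h, and 8.80, 8.85 and 8.80 at 48 h, the highest group. It rose by 0.34 ± 0.06 at 48 h (adjusted p = 0.00037) and by 0.21 ± 0.06 from 24 h to 48 h (adjusted p = 0.03). The CASP9 step from 24 h ended without any one of 5 of the 6 arrays, with adjusted p of 0.11 and 0.091 without 24 h array 1 or 3, and 0.069, 0.1 and 0.054 without 48 h array 1, 2 or 3. In untreated CALDOX it was higher by 0.21 ± 0.06 (adjusted p = 0.011), and without untreated CAL51 array 3 the adjusted p was 0.064. Among its 3 probe sets the other 2 gave 0.05 (adjusted p = 0.73) and 0.03 (adjusted p = 0.85) for that difference.

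CASP2, the caspase that PIDD1 activates, went down in both lines. It gave 10.17, 10.11 and 10.18 untreated, 10.03, 9.86 and 10.06 at 24 h and 9.84, 9.81 and 9.88 at 48 h, and in CALDOX 10.16, 10.27 and 10.25 untreated and 9.87, 9.97 and 9.94 treated. Treated arrays were below untreated arrays in each line without overlap. CASP2 changed by -0.31 ± 0.06 at 48 h in CAL51 (adjusted p = 0.0014) and by -0.30 ± 0.06 in CALDOX (adjusted p = 0.0044), and at 24 h in CAL51 the change was -0.17 ± 0.06 (adjusted p = 0.1). All 7 of its probe sets gave negative values at 48 h, from -0.17 (adjusted p = 0.26) to -0.41 (adjusted p = 0.00092). CASP6 and CASP10 passed in no comparison.

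Among the apoptosome and mitochondrial factors, APAF1, the scaffold of the apoptosome, and DIABLO, an antagonist of the inhibitors, passed in no comparison. HTRA2, a mitochondrial protease released with cytochrome c, gave 9.72, 9.75 and 9.67 untreated, 9.42, 9.31 and 9.37 at 24 h, and 9.43, 9.50 and 9.63 at 48 h. It was lowest at 24 h, with changes of -0.35 ± 0.07 (adjusted p = 0.0029) and -0.19 ± 0.07 (adjusted p = 0.048). The later call for HTRA2 ended without any one of 5 of the 6 arrays, with adjusted p of 0.11, 0.13 and 0.065 without untreated array 1, 2 or 3, and 0.19 and 0.12 without 48 h array 1 or 2. CYCS, cytochrome c, gave 13.10, 12.87 and 12.94 in untreated CAL51 and 12.59, 12.64 and 12.61 in untreated CALDOX, a difference of -0.36 ± 0.07 (adjusted p = 0.00097). Of the inhibitors, which bind caspases or ubiquitinate signalling partners, XIAP passed in no comparison with all arrays. Without untreated CAL51 array 1, XIAP was higher by 0.48 at 48 h (adjusted p = 0.027) and by 0.41 in untreated CALDOX (adjusted p = 0.045), in place of 0.33 ± 0.14 and 0.27 ± 0.14. BIRC2 gave 10.01, 9.91 and 9.84 in untreated CAL51 and 10.16, 10.33 and 10.28 in untreated CALDOX, a difference of 0.34 ± 0.09 (adjusted p = 0.011) that ended without untreated CAL51 array 3 (adjusted p = 0.052).

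The 7 genes that were higher in treated CALDOX were BAX, BIK, PMAIP1, FAS, TNFRSF10A, TNFRSF10B and TNFRSF10D. All 7 were also among the 12 members higher at 24 h in CAL51, a comparison that shares no array with it, which is 100% of the CALDOX list and 58.3% of the CAL51 list. Over all genes the 524 that were higher in both were 54.9% of the 954 in CALDOX and 45.9% of the 1141 in CAL51. At the brightest probe set 14 of the 38 genes, 36.8%, passed in none of the 6 comparisons, against 61.4% of all genes, and 3 of the 14 (BCL2, TRADD and XIAP) had another probe set that passed in at least 1.

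The 24 h responses of the lines share no array, and over the 38 genes they correlated with a Pearson r of 0.88 and a Spearman rho of 0.66, given as a description since genes are not independent replicates. Without FAS r was 0.75, and over all 19775 genes it was 0.55. The test of the difference passed for 3 genes. The response in CALDOX minus that in CAL51 was -0.97 ± 0.16 for FAS (adjusted p = 0.0056), -0.69 ± 0.10 for BAX (adjusted p = 0.0016) and -0.51 ± 0.08 for TNFRSF10B (adjusted p = 0.0039). Not every FAS probe set showed it in the fit over all probe sets. The second brightest gave -0.34 (adjusted p = 0.23), the dimmest 0.02 (adjusted p = 0.98), and the others between them in signal -1.20 each. In untreated CALDOX these genes stood at 8.93, 10.15 and 10.21 on average against 6.78, 9.41 and 9.92 in untreated CAL51, and after treatment FAS reached 10.34 in CALDOX and 9.16 in CAL51 at 24 h, BAX 10.44 and 10.39, and TNFRSF10B 10.75 and 10.97. The starting levels thus differed too, and their part in the difference of responses was not tested.

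For the other genes that were higher in CAL51 the difference did not pass, which does not show that the lines responded alike. TNFRSF10D differed by -0.37 ± 0.09 (adjusted p = 0.064), or by -0.43 without untreated CALDOX array 1 (adjusted p = 0.03), PIDD1 by -0.29 ± 0.12 (adjusted p = 0.35), PMAIP1 by -0.11 ± 0.13 (adjusted p = 0.84) and BIK by 0.13 ± 0.10 (adjusted p = 0.73). The 2 other probe sets of TNFRSF10C that rose in CAL51 at 24 h, by 1.31 and 0.98, gave differences of -1.34 (adjusted p = 2.5e-05) and -1.10 (adjusted p = 0.0025), where the brightest gave -0.41 (adjusted p = 0.34 in the fit over all probe sets).

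**Figure D4:**
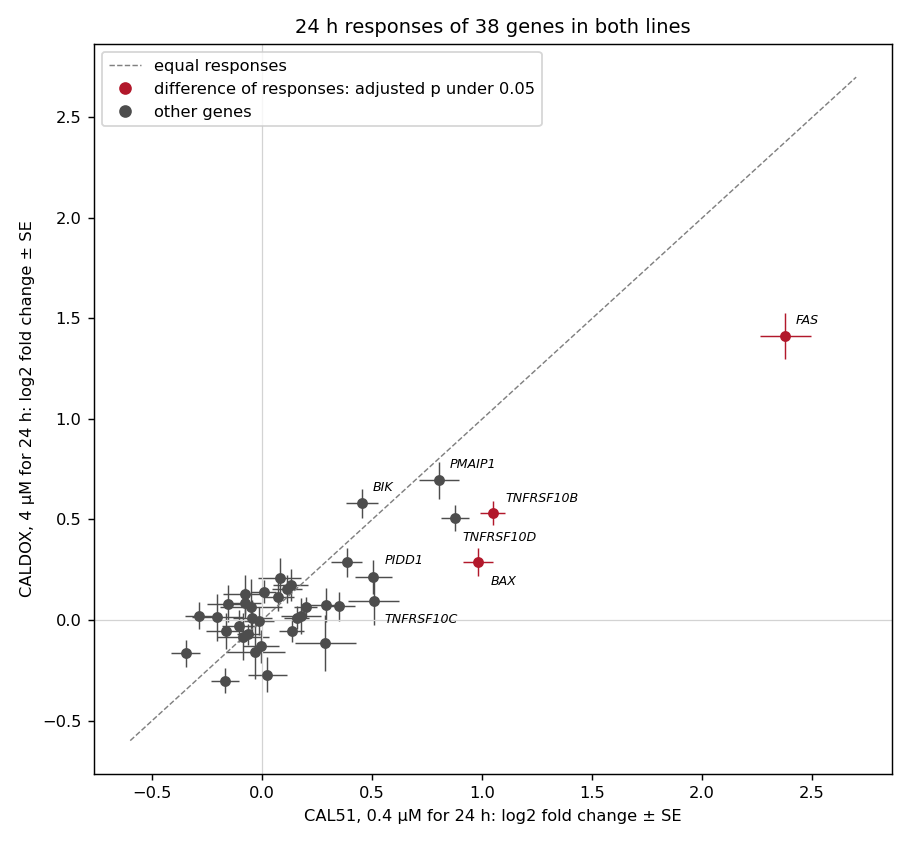
Log2 fold change after 24 h of drug in CALDOX (vertical, 4 µM) against that in CAL51 (horizontal, 0.4 µM) for 38 genes, with standard errors; the dashed line marks equal responses and red points passed the test of the difference. FAS, BAX and TNFRSF10B lie below the line, at 1.41 against 2.38, 0.29 against 0.98 and 0.53 against 1.05, while BIK and PMAIP1 lie close to it.

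Probe sets of the same gene can read different transcripts, and 30 of the 38 genes had more than 1. For FAS, 4 of 5 probe sets rose at 24 h by 1.49 to 2.80 and the fifth gave 0.16 (adjusted p = 0.34). For BCL2, 2 dimmer probe sets changed at 24 h by -0.49 (adjusted p = 0.0092) and -0.30 (adjusted p = 0.024) and at 48 h by -0.54 (adjusted p = 0.0024) and -0.28 (adjusted p = 0.018), while the brightest gave -0.05 and 0.16. For TNFRSF10A at 48 h the brightest probe set gave 0.13, so the fall from 24 h was seen by that one and not by the 2 dimmer ones, which gave -0.06 (adjusted p = 0.7) and -0.20 (adjusted p = 0.39) from 24 h to 48 h. MCL1 at 24 h gave 0.44 (adjusted p = 0.00072) at one probe set and -0.46 (adjusted p = 0.016) at another.

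**Figure D5:**
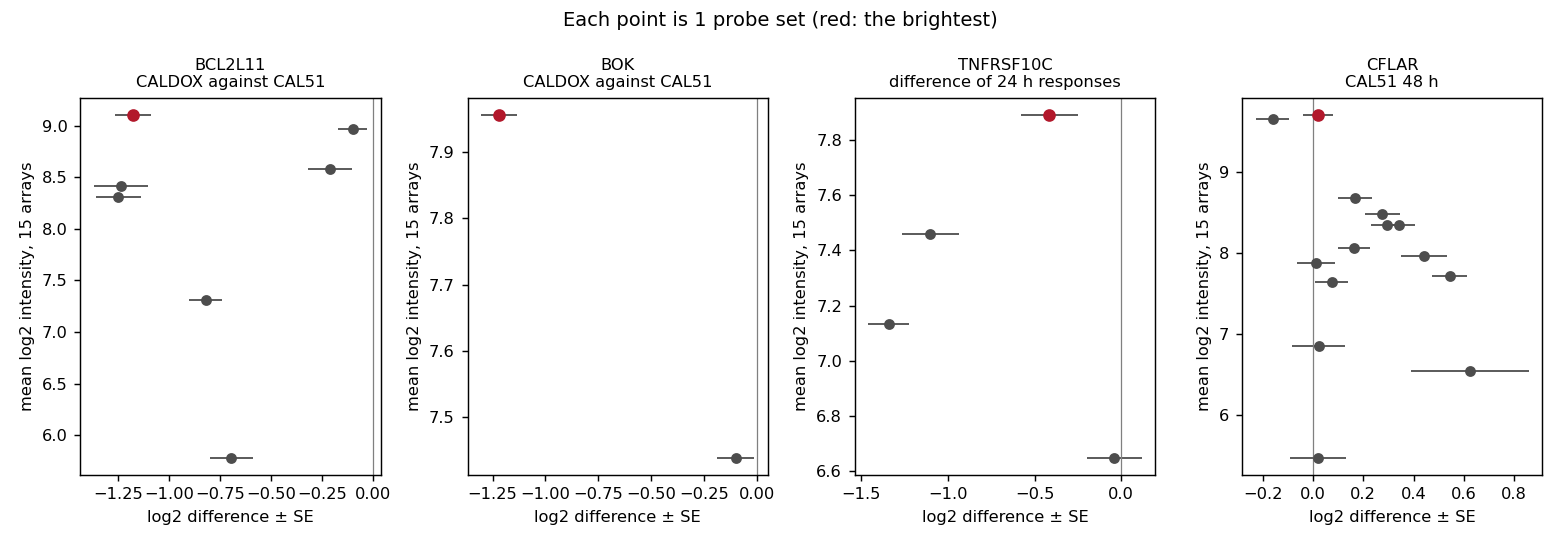
Each point is 1 probe set of the named gene, placed by its log2 difference with standard error (horizontal) and its mean log2 intensity over 15 arrays (vertical); the brightest is red. Between untreated CALDOX and untreated CAL51, 5 of 7 probe sets of BCL2L11 lie between -0.70 and -1.25 and 1 of 2 of BOK at -1.22; in the difference of 24 h responses 2 of TNFRSF10C lie beyond the brightest; and in CAL51 at 48 h against untreated the 14 of CFLAR spread from -0.16 to 0.62.

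Beside these genes, 46 of 51 other apoptosis genes were measured, among them ligands, p53 effectors and further BCL2 relatives. At 24 h in CAL51, 5 were higher and 1 lower, against 5.77% and 4.34% of all genes, led by MDM2, the ubiquitin ligase that restrains p53, at 1.26 ± 0.09 (adjusted p = 2.8e-07), PERP, a p53-induced membrane protein, at 0.60 ± 0.08 (adjusted p = 0.00012), TNFRSF12A, the TWEAK receptor, at 0.57 ± 0.06 (adjusted p = 1.5e-05), and AEN, a p53-induced nuclease, at 0.54 ± 0.08 (adjusted p = 0.0002). At 48 h, 8 were higher and 5 lower, against 10.5% and 11.2%, with MDM2 at 1.41, PERP at 0.87, MOAP1, a BAX-binding protein, at 0.67, and TNFRSF12A at 0.59. From 24 h to 48 h, 5 were higher and 3 lower, against 4.37% and 5.34%, led by BNIP3L, a mitophagy receptor, at 0.45 ± 0.05 (adjusted p = 0.00012), with MOAP1 at 0.33, DAPK1 at 0.31 and MDM4, a relative of MDM2, at -0.31.

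Between the untreated lines 8 of the 46 were higher and 8 lower in CALDOX, near the 14.2% and 11.7% of all genes. TNFRSF21, the death receptor DR6, differed by -1.07 ± 0.06 (adjusted p = 4e-10) and PERP by 0.81 ± 0.08 (adjusted p = 8.6e-07). DFFA, the inhibitor of the caspase-activated DNase, differed by -0.52 ± 0.06 (adjusted p = 4.9e-06), and CRADD, an adaptor that joins PIDD1 to caspase-2, by 0.45 ± 0.09 (adjusted p = 0.00084). Treated CALDOX had 6 higher and 5 lower than untreated CALDOX, against 4.82% and 5.5% of all genes, with TNFRSF12A at 0.77 ± 0.06 (adjusted p = 1.3e-06), MDM2 at 0.64 ± 0.09 (adjusted p = 0.00031), BNIP3 at -0.54 ± 0.08 (adjusted p = 0.00049) and TNFRSF21 at 0.39 ± 0.06 (adjusted p = 0.00023). TNFRSF21 also rose in CAL51 at 48 h, by 0.23 ± 0.06 (adjusted p = 0.0061), and at 24 h there it gave 0.10 ± 0.06 (adjusted p = 0.34).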

How the data were processed

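RNA from 15 cultures was hybridized to 1 Affymetrix array each. The authors deposited values of 54675 probe sets, for which the submitters' processing notes name RMA without a version. RMA corrects background, quantile normalizes arrays and summarizes probes, so a global shift between groups would be removed. No label states the log base: the range of the deposited values, 3.08 to 14.76, fits log2 intensities. Remaining background in dim probe sets makes fold changes too small.

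Of the probe sets, 41097 had 1 symbol in the platform annotation, 1801 several and 11777 none. After leaving out 62 control probe sets, 41091 remained, of which 41037 had their gene ID in the RefSeq table and 0 symbols needed updating. The brightest probe set stood for each of 19775 genes. With lmFit and eBayes of limma 3.58.1 (R 4.3.3), a model of 5 group means used all 15 arrays and had 10 residual and 5.40 prior degrees of freedom. Two-sided p-values were adjusted by Benjamini-Hochberg over 19775 genes, with a call at an adjusted p under 0.05. All p-values measure the spread between independent cultures of a line, and 3 arrays a group limit the precision.

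The members and lists were chosen with earlier results of these data known. All measured members are named. Of the 51 other apoptosis genes, up to 4 called with the largest change are named in each comparison, and CDKN1A, MDM2, TOP2A and ABCB1 served as checks. The fit over all probe sets was added after seeing the data. Same-numbered cultures did not, as a set, deviate together. Over 30 pairs of arrays with the same number, correlations of deviations ran from -0.46 to 0.46. Their median was 0.00, and 8 were over 0.1.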

Additional observations from a re-analysis of the deposited data

Results flagged for a closer look

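The 24 h response to doxorubicin differed between the lines, by limma's test of the difference with Benjamini-Hochberg adjustment, for 3 members. The values, CALDOX minus CAL51, were -0.97 ± 0.16 for FAS (adjusted p = 0.0056), -0.69 ± 0.10 for BAX (adjusted p = 0.0016) and -0.51 ± 0.08 for TNFRSF10B (adjusted p = 0.0039). In each, all 3 treated arrays were above all 3 untreated arrays in both lines. At the dimmer probe sets of FAS the difference ran from -1.20 to 0.02. The same test gave -0.87 ± 0.10 for CDKN1A (adjusted p = 0.00027) and -0.62 ± 0.13 for MDM2 (adjusted p = 0.028), which were followed as checks of the treatment. Line, dose and the earlier drug exposure of CALDOX cannot be told apart in these differences.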

How the results depend on the processing

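The number of members called was within 1.5 times its value at 24 h (14), at 48 h (15) and between the untreated lines (16) under every alternative run. For 48 h against 24 h it was 4, and 2 with the mean of all probe sets of a gene, 7 with repeated quantile normalization, 7 with each array's interquartile range as a covariate and 1 with only the arrays compared. With array weights, whose estimation stopped before convergence, it was 14 in place of 8 in treated CALDOX and 7 in place of 3 for the difference of responses. Leaving out 1 array gave 11 to 13 at 24 h, 13 to 15 at 48 h, 1 to 4 for 48 h against 24 h, 15 to 17 between the untreated lines, 6 to 8 in treated CALDOX and 3 to 4 for the difference. The calls for BAX, FAS and TNFRSF10B in the difference held under all 21 alternatives. Read singly, the dimmer probe sets of FAS did not all show it, as given above. With the mean of all probe sets of a gene, 3 member results turned: BCL2 at 48 h to -0.19 (adjusted p = 0.015) and between the lines to -0.17 (adjusted p = 0.02), and CFLAR between the lines to 0.02 (adjusted p = 0.86). The calls that held under all alternatives were 9 of 14 at 24 h, 12 of 15 at 48 h, 1 of 4 for 48 h against 24 h (BIK), 13 of 16 between the lines and 6 of 8 in treated CALDOX. For 48 h against 24 h, CASP2 and CYCS passed without 24 h array 2, at -0.20 (adjusted p = 0.043) and -0.25 (adjusted p = 0.028). Of 3636 member values under alternatives, 3489 had the same outcome as in the main fit, 64 lost a call, 80 gained one and 3 turned. The 3489 include values called in neither fit, so they are not a count of calls that held.

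Over all genes, array weights called 3200 in place of 1999 at 24 h, 4961 in place of 2041 in treated CALDOX and 1231 in place of 283 for the difference. Only the arrays compared gave 870 at 24 h and 565 in place of 1920 for 48 h against 24 h. For the difference, repeated quantile normalization gave 426, the interquartile range as a covariate 487 (247 higher and 240 lower, in place of 114 and 169), a trended robust prior 470, and leaving out 1 array 161 to 353. Leaving out 1 array gave as few as 1236 for 48 h against 24 h, without 48 h array 1, and 1341 in treated CALDOX, without its treated array 1. The cause of these shifts was not tested.

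With the replicate number as a replicate block, members called were 13 at 24 h, 14 at 48 h, 3 for 48 h against 24 h, 17 between the lines, 8 in treated CALDOX and 3 for the difference, and 5 of 15 arrays correlated best with their own number. The numbers were therefore not used to pair the samples. With 3 arrays a group, these values cannot show that same-numbered cultures were handled apart.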
